A study of Homo sapiens with 15 samples.

Results

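SRSF1, SRSF3, SRSF10, SRSF11, SREK1, BCLAF1 and PPIG are 7 genes for SR and SR-related proteins, taken by symbol from a table of 13056 genes that gives the use of distal poly(A) sites. All 7 had a value in every library. They were picked because earlier calls on this same table had singled them out in comparisons with the control hairpin. Their own differences from control are therefore given as a description, with standard errors and no test.

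RNA was sequenced from the human embryonic kidney line HEK293T under 7 hairpins. The labels' protocols call it nuclear RNA but also name a total RNA kit. The knockdown groups were shSF3B4, shU2AF2, shPABPN1, shPCBP2, shZNF384 and shHDAC1 with 2 libraries each, and the control group was shControl with 3 libraries, whose genotype is labelled WT. All groups share the line and a short hairpin RNA, and the labels give neither the hairpin sequences nor the time after delivery. The library names of shControl alone carry the suffix nuc, so a difference in preparation and the effect of a hairpin cannot be told apart in any comparison with it.

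The measurement was PDUI (percentage of distal polyA site usage index), an estimate of what fraction of a gene's RNA reaches its distal poly(A) site before it is cleaved. It runs from near 0 for mostly proximal ends to 1 for distal ends alone. Its lowest entry is 0.001, and values from 0.01 upward come in steps of 0.01. Its depth is unknown, since the values come without read counts. PDUI is a ratio in bulk RNA, so a change in the choice of site and a change in the decay of either isoform cannot be told apart. It holds no RNA level, so neither the cell line's markers nor the strength of the knockdowns were checked here. Mean PDUI over the 11353 genes complete in all 15 libraries was 0.533 to 0.585 in the knockdown libraries, against 0.522 in shControl replicate 1 and 0.56 and 0.561 in the other shControl libraries. That low control library did not stand apart in the 7 genes, where the 3 shControl values of a gene lay within 0.03 of each other. The 7 genes were chosen by calls against these libraries, so this says nothing about other genes.

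SR proteins carry an RNA recognition motif and a domain rich in arginine and serine repeats, bind exonic enhancers, and help the U1 and U2 particles to find splice sites. Several of them also act in RNA export, and many SR genes control their own RNA through alternative exons that bring on decay. Among the targeted genes, SF3B4 belongs to the SF3b part of the U2 snRNP and U2AF2 binds the polypyrimidine tract before the 3' splice site. PABPN1 is the nuclear poly(A)-binding protein, PCBP2 a poly(C)-binding protein, ZNF384 a zinc finger transcription factor and HDAC1 a histone deacetylase.

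The last exons of the measured transcripts were read from GENCODE 29 on GRCh38. The sites that PDUI compares are taken to lie in them, which was not checked, since the site caller is not given. SRSF11 ends in chr1:70250608-70253052 on the plus strand, SREK1 in chr5:66178719-66183615 plus, PPIG in chr2:169636413-169641406 plus and SRSF3 in chr6:36601962-36605600 plus. BCLAF1 ends in chr6:136256863-136261115 on the minus strand, SRSF10 in chr1:23970364-23971439 minus and SRSF1 in chr17:58004849-58005600 minus. Apart from SRSF11, the deposited transcripts carry another version number than GENCODE 29, so their ends in the authors' annotation may differ. The last exon of SRSF1 overlaps an exon of AC015813.2 on the same strand, and its values are uncertain for that reason, while the other 6 overlap no other gene. The exons of SREK1, BCLAF1, PPIG and SRSF3 were long, at 4897, 4253, 4994 and 3639 bases, against a median of 1372 bases over the 12704 matched transcripts of the table. SRSF11 had 2445 bases, SRSF10 1076 and SRSF1 752. Nearly all of the BCLAF1 and SRSF3 exons, 4247 and 3611 bases, was 3' untranslated.

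Cleavage follows a short way behind a poly(A) signal, so the last 30 bases of 5 transcripts are shown as the annotated distal ends. Capitals mark the hexamers AATAAA and ATTAAA, the canonical signal and its commonest variant, searched on the transcript strand alone, with overlapping matches kept and T written for U.
SRSF11: taaaAATAAAagtggtttttgttagaaaaa
SREK1: tttttAATAAAatgaaaatcttaaaatctt
BCLAF1: aacAATAAATAAAaaataccactcaccctc
PPIG: attgtATTAAATAAActatactatAATAAA
SRSF3: gtacttaataatacagtatttagattctca
The first 4 hold at least 1 of the hexamers and SRSF3 holds neither. Either hexamer was present in the last 30 bases of 62.9% of the matched transcripts. SRSF1 and SRSF10 had neither in their last 40 bases. The annotated SRSF10 transcript, not shown, ends in a run of A, so its distal end is uncertain. Over the whole last exon, AATAAA and ATTAAA occurred 12 and 5 times in BCLAF1, 10 and 6 times in SREK1, 8 times each in PPIG, 4 times and 1 time in SRSF11, 3 and 4 times in SRSF3 and 1 time and 2 times in SRSF10. The median over all matched transcripts was 2 occurrences of either hexamer. Which of these matches the proximal sites used is not given in the sources used here.

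**Figure D1:**
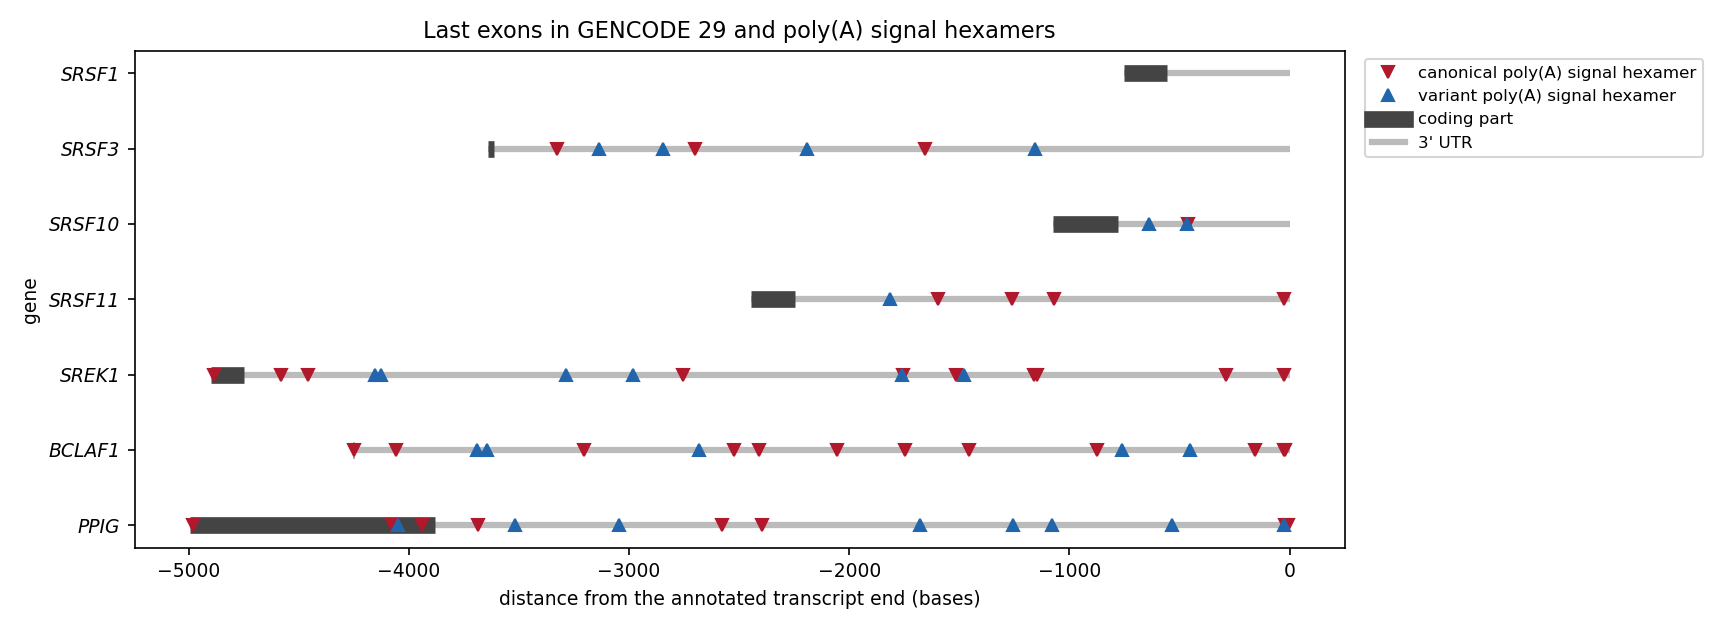
Last exons of the 7 genes drawn to scale by distance in bases from the annotated transcript end, with the coding part as a thick bar and the 3' untranslated part as a thin bar. Triangles mark hexamer matches, which are spread along the exons of SREK1, BCLAF1 and PPIG and are missing from that of SRSF1.

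At baseline all of the 7 genes but SRSF10 mostly used proximal sites. The shControl means were 0.05 for SRSF3, 0.13 for SRSF1, 0.207 for SRSF11, 0.233 for BCLAF1, 0.28 for PPIG, 0.3 for SREK1 and 0.523 for SRSF10. Over the complete genes the median shControl mean was 0.567. Each of the 7 lay under it, SRSF10 with 45.4% of genes below its value and SRSF3 with 4.9%. The 3 control libraries agreed closely, with an SD of at most 0.015 in any of the 7 genes and a median SD of 0.046 over the complete genes. Nothing is read from this agreement, because the 7 genes were chosen by calls against these same libraries and a low spread favours a call.

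SRSF10, an SR protein that works as a sequence-dependent splicing regulator and represses splicing when dephosphorylated, had the widest range. Its group means spanned 0.32, more than in 92% of the complete genes, where the median span was 0.14. Its PDUI was 0.25 and 0.26 in shSF3B4 and 0.41 and 0.37 in shU2AF2, against 0.51, 0.54 and 0.52 in shControl. Both groups lay wholly below the control libraries, and shSF3B4 lay wholly below shU2AF2. The difference from shControl was −0.268 (SE 0.0224) in shSF3B4, the 91st lowest of 12195 genes, and −0.133 (SE 0.0224) in shU2AF2. In the remaining knockdowns SRSF10 stood at 0.48 and 0.45 in shPABPN1, 0.53 and 0.53 in shPCBP2, 0.6 and 0.55 in shZNF384 and 0.47 and 0.43 in shHDAC1. Thus shPABPN1 and shHDAC1 were also below every control library, shZNF384 was above them, and shPCBP2 fell inside their range. All SRSF10 values carry the limit that its annotated distal end is uncertain.

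SRSF1, a founding SR protein and a general splicing activator, showed another order. It was at 0.33 and 0.34 in shU2AF2 and 0.3 and 0.23 in shPABPN1, against 0.13 in each of the 3 shControl libraries. These differences were 0.205 (SE 0.0159) and 0.135 (SE 0.0159), and the 2 groups did not overlap each other either. The shPCBP2 libraries, both at 0.17, and the shZNF384 libraries, at 0.19 and 0.18, also lay above the controls. In shSF3B4 the values were 0.12 and 0.13, and in shHDAC1 both were 0.12, so that these groups ended within 0.01 of the control value. SRSF1 and SRSF10 therefore differed in their order: shU2AF2 was the highest group for SRSF1 and the second lowest for SRSF10.

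SRSF3, a small SR protein that also serves as an adaptor in mRNA export, hardly varied. It read 0.06 and 0.07 in shSF3B4 and 0.06 in both libraries of shU2AF2, against 0.05 in all 3 shControl libraries. The other 8 knockdown libraries were also at 0.05. The shSF3B4 difference of 0.015 (SE 0.0032) is between 1 and 2 steps of the scale, and it turned to −0.0133 with each library centred on its median. Its group means spanned 0.015, more than in 5.4% of the complete genes.

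SRSF11, an SR protein known to bind U2AF2, was low in both splicing factor knockdowns. Its PDUI was 0.15 and 0.13 in shSF3B4 and 0.16 and 0.17 in shU2AF2, against 0.21, 0.21 and 0.2 in shControl. The differences were −0.0667 and −0.0417 (SE 0.0111 each), and neither group reached the controls. On the other side of the controls were 0.26 and 0.23 in shPABPN1, 0.23 and 0.25 in shPCBP2 and 0.24 in both libraries of shZNF384, with mean differences of 0.0383, 0.0333 and 0.0333 that overlapped one another. The shHDAC1 libraries, at 0.2 and 0.22, straddled the control range.

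**Figure D2:**
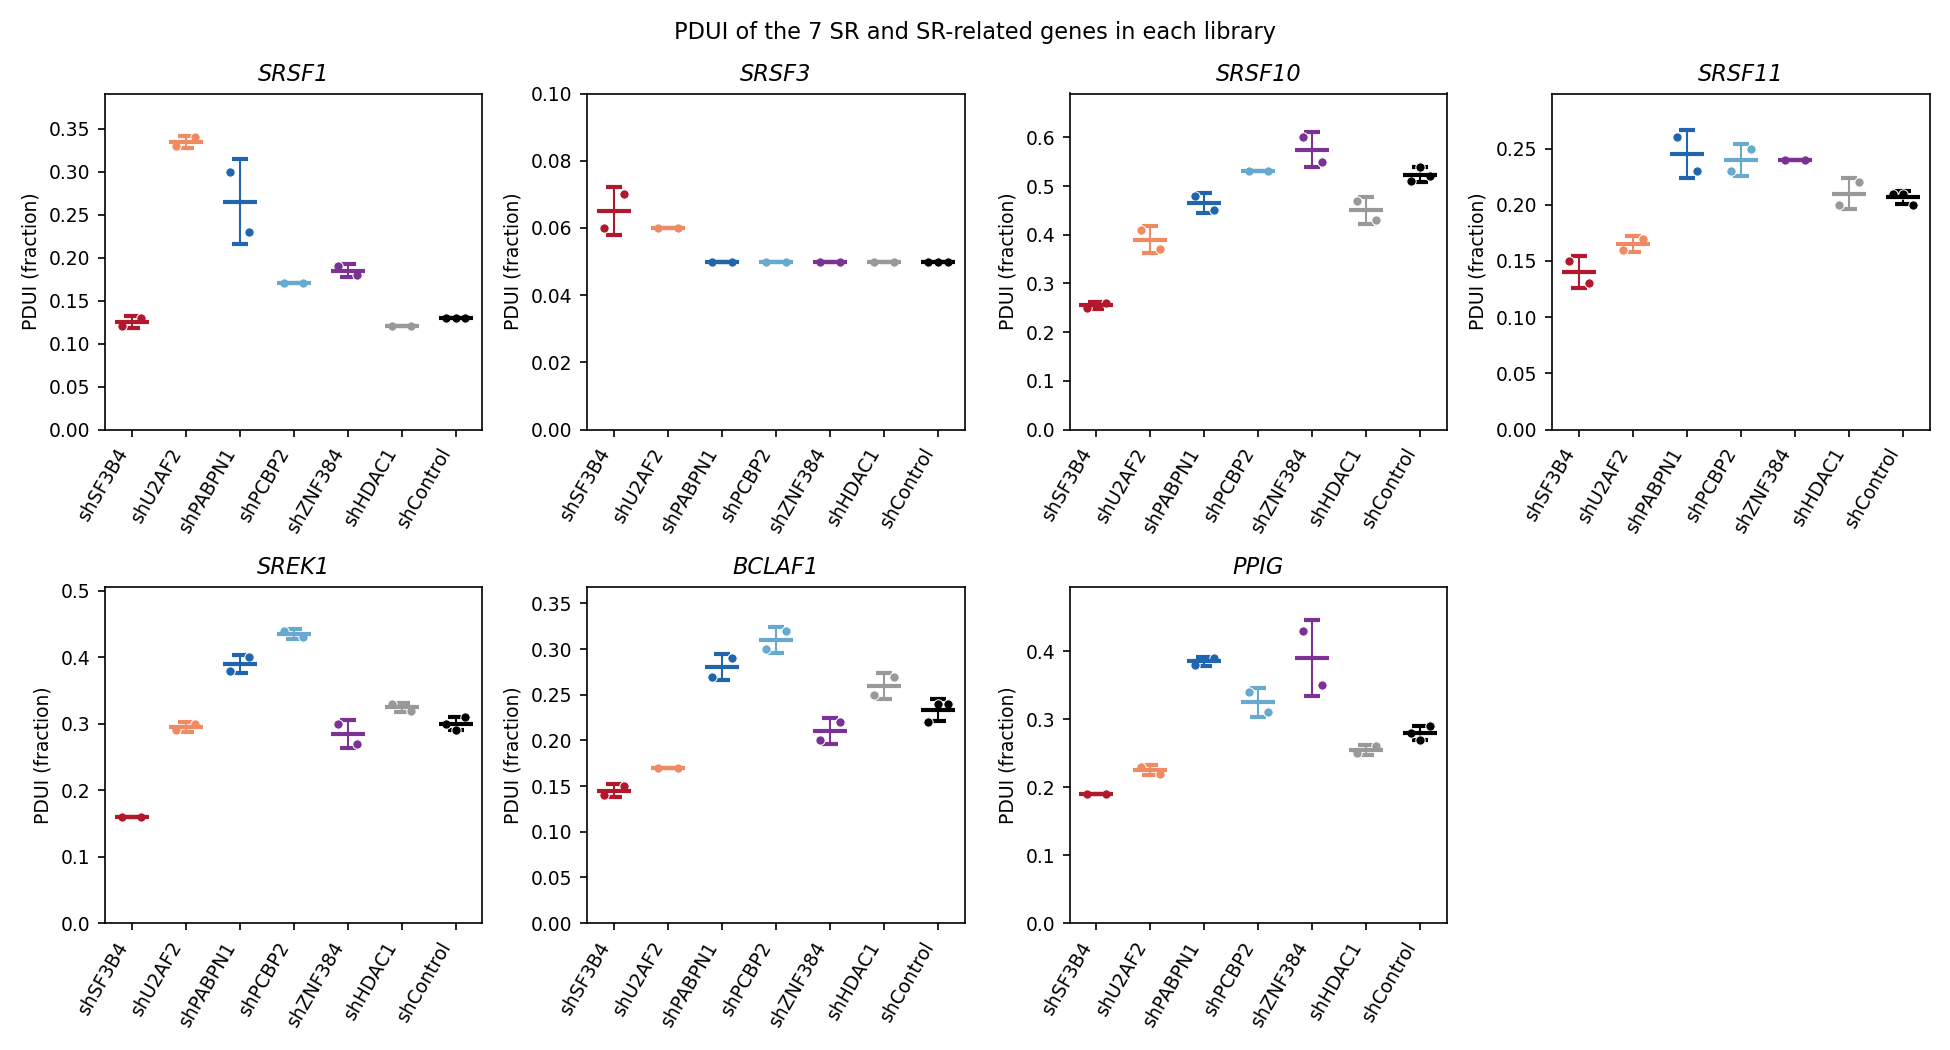
PDUI (fraction, axis from 0) of each gene in every library, with knockdowns left of shControl; points are libraries, the horizontal bar is the group mean and the whiskers are the SD (n = 2 per knockdown, n = 3 for shControl). In SRSF10, SRSF11, SREK1, BCLAF1 and PPIG the shSF3B4 libraries are the lowest of all groups, while SRSF1 is highest in shU2AF2.

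SREK1 is an SR-related protein with RNA recognition motifs that regulates splice site choice. It stood at 0.16 in both shSF3B4 libraries, against 0.3, 0.29 and 0.31 in shControl, a difference of −0.14 (SE 0.0114). The same gene was at 0.29 and 0.3 in shU2AF2, inside the control range, with a difference of −0.005 (SE 0.0114). Thus the groups with a hairpin against either splicing factor were far apart for this gene. The highest values were 0.44 and 0.43 in shPCBP2, a difference of 0.135, and next came 0.38 and 0.4 in shPABPN1, a difference of 0.09. In shHDAC1 the libraries read 0.33 and 0.32, just above the controls, and in shZNF384 they read 0.3 and 0.27, overlapping them.

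BCLAF1, a nuclear protein with arginine-serine repeats that is found with spliceosomes and with the related THRAP3, followed a similar order. Its values were 0.14 and 0.15 in shSF3B4 and 0.17 in both libraries of shU2AF2, against 0.22, 0.24 and 0.24 in shControl. The differences were −0.0883 and −0.0633 (SE 0.0111 each), and both groups lay below the controls without overlap. It was highest in shPCBP2, at 0.3 and 0.32, where the difference was 0.0767, and stood at 0.27 and 0.29 in shPABPN1, where it was 0.0467. The shHDAC1 libraries, at 0.25 and 0.27, lay just above the controls and the shZNF384 libraries, at 0.2 and 0.22, touched them from below.

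PPIG, a nuclear cyclophilin with a long arginine-serine tail that binds the carboxy-terminal domain of RNA polymerase II, was at 0.19 in both shSF3B4 libraries and at 0.23 and 0.22 in shU2AF2, against 0.28, 0.27 and 0.29 in shControl. These are differences of −0.09 and −0.055 (SE 0.02 each), again with no overlap. The high groups were shPABPN1 at 0.38 and 0.39 and shZNF384 at 0.43 and 0.35, with mean differences of 0.105 and 0.11 that could not be told apart by their libraries. The shZNF384 difference was 0.07 without replicate 1 of that group and 0.15 without replicate 2. The shPCBP2 libraries read 0.34 and 0.31, above the controls, and the shHDAC1 libraries 0.25 and 0.26, below them. By group mean, SRSF10 was highest in shZNF384 and SREK1 and BCLAF1 in shPCBP2, while for PPIG shZNF384 and shPABPN1 overlapped at the top.

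**Figure D3:**
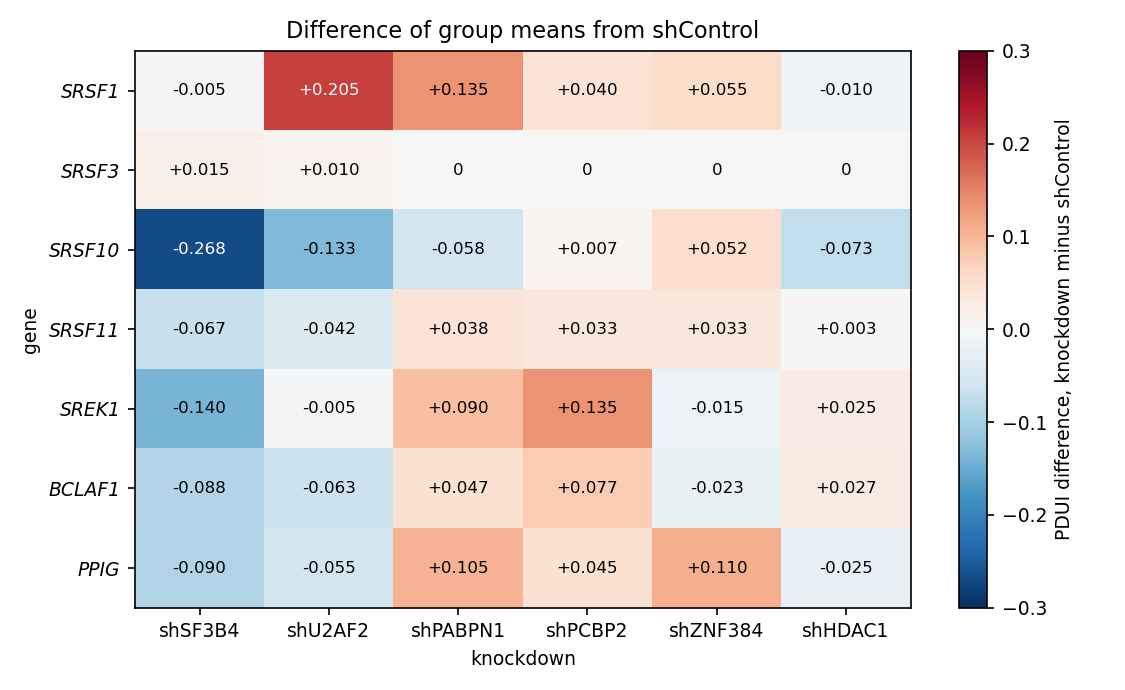
Difference of the group mean PDUI from shControl for each gene (rows) and knockdown (columns), on a colour scale from −0.3 (blue) to 0.3 (red) with the value printed in each cell. The shSF3B4 column holds −0.268 for SRSF10 and negative values for 6 of the 7 genes, and the shU2AF2 column holds 0.205 for SRSF1.

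Across the 15 libraries, SREK1 and BCLAF1 varied together most closely among the 7 genes (Pearson r = 0.899), followed by SRSF11 with PPIG (r = 0.862) and SRSF10 with SRSF11 (r = 0.824). SRSF3 ran opposite to SRSF11 (r = −0.878), and SRSF1 was weakly related to each of the others (r between −0.122 and 0.244). SRSF3 was at 0.06 or 0.07 in the shSF3B4 and shU2AF2 libraries and at 0.05 in all others, so its r rests on those few rounded values. The correlations are descriptions over n = 15 libraries in 7 groups that share 1 control set, and no test is attached.

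A model fitted to all genes with limma, in which a call means an adjusted p under 0.05, gives the background for the counts of these genes. In shSF3B4 it called 6 of the 7, 1 higher and 5 lower, where 5.42% of all tested genes were called. In shU2AF2 it called 3 (SRSF1 higher, SRSF10 and BCLAF1 lower) at a background of 7.27%, and in shPABPN1 it called 4, all higher, at 4.72%. The counts were 2 higher in shPCBP2 at 1.17%, 1 higher in shZNF384 at 1.5% and 0 in shHDAC1 at 0.0243%. In shHDAC1, 2 of the 7 had an unadjusted p under 0.05, and a logit scale also gave 0 calls. Nothing is read from these counts, because calls of this kind chose the genes.

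Genes whose knockdown libraries did not overlap the controls were also counted, and nothing is read from these counts either. In shSF3B4, 1 of the 7 lay above all controls and 5 below, where 17.1% and 8.3% of all tested genes did. In shU2AF2, 2 lay above and 4 below, at 19.2% and 9.83%. In shPABPN1, 5 lay above and 1 below, at 12.7% and 13.3%. In shPCBP2, 5 lay above and 0 below, at 16.4% and 5.27%, and in shZNF384, 4 lay above and 0 below, at 20.8% and 3.65%. In shHDAC1, 2 lay above and 3 below, at 8.18% and 7.07%.

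Single libraries decided several of the calls among the 7 genes. The calls of SRSF3 and PPIG in shSF3B4 were lost without any 1 of the 3 shControl libraries, and without the second shSF3B4 library 3 of the 7 were called, SRSF10, SREK1 and BCLAF1. That of BCLAF1 in shU2AF2 was lost without either shU2AF2 library, and without replicate 2 only SRSF1 kept its call. In shPABPN1 the call of BCLAF1 was lost without any 1 library of either group, and that of PPIG without shControl replicate 2 or either shPABPN1 library. BCLAF1 in shPCBP2 lost its call without shControl replicate 1 or either shPCBP2 library. PPIG in shZNF384 kept its call in 1 of 5 such omissions, that of shZNF384 replicate 2. With libraries centred on their medians, 3 of the 7 were called in shSF3B4 (SRSF10, SREK1 and BCLAF1), 3 in shU2AF2, 1 in shPABPN1 (SRSF1) and 0 in the other knockdowns. In shZNF384 centring moved the difference of SRSF1 to 0.0067, of SRSF10 to 0.0033, of SRSF11 to −0.015 and of PPIG to 0.0617. In shPCBP2 it moved SRSF1 to 0.0067, SRSF11 to 0, BCLAF1 to 0.0433 and PPIG to 0.0117.

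The wider family was taken from 3 lists, of classical SR proteins, SR-related proteins, and SR protein kinases with the import receptor TNPO3, which together name 65 genes. Of these, 56 are in the table, 49 without the 7 genes above. The lists were drawn up with earlier results of these data known. No excess or deficit against a background share is therefore read from any count of list genes. In shSF3B4, 5 of the 56 rose, 5 fell and 46 did not pass, at background shares of 4.26% higher and 1.16% lower. All 5 falls were among the 7 genes, and of the other 49, 4 rose and 0 fell. The median difference of those 49 was 0.02, against 0.0117 over all genes. By list, 1 classical SR gene rose and 2 fell of 10, and 4 SR-related genes rose and 3 fell of 36. The classical calls and the SR-related falls were all among the 7 genes, so nothing is read from these counts by list. None of the 10 kinase and import genes passed (limma), though 2 had an unadjusted p under 0.05.

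The 4 other genes that rose in shSF3B4 were PNN, LUC7L3, ARGLU1 and PRPF38B. PNN, pinin, a protein linked to the exon junction complex, was at 0.28 and 0.27 in shSF3B4, against 0.15, 0.17 and 0.16 in shControl (difference 0.115, SE 0.0101, limma adjusted p = 0.000261). LUC7L3, a relative of a yeast U1 snRNP protein, was at 0.11 and 0.13, against 0.04, 0.05 and 0.05 in shControl (difference 0.0733, SE 0.0076, limma adjusted p = 0.000691). In both genes the knockdown libraries lay wholly above the controls. ARGLU1, a splicing and transcription coactivator, was at 0.11 and 0.12 in shSF3B4, against 0.05, 0.07 and 0.07 in shControl (limma adjusted p = 0.0052). PRPF38B, a splicing factor of the PRP38 family, was at 0.3 and 0.31, against 0.23, 0.26 and 0.27 in shControl (limma adjusted p = 0.0387). With libraries centred on their medians all 4 differences stayed positive, at 0.0233 to 0.0867, but none passed (adjusted p between 0.0743 and 0.646). With only shSF3B4 and shControl in the fit, PNN kept its call (adjusted p = 0.0409), while LUC7L3, ARGLU1 and PRPF38B did not pass (adjusted p = 0.0521, 0.109 and 0.271). PRPF38B did not pass on a logit scale either (adjusted p = 0.0501). PRPF38B also lost its call without either shSF3B4 library or without shControl replicate 2 (adjusted p between 0.0667 and 0.199), and ARGLU1 without shSF3B4 replicate 2 (adjusted p = 0.0521). Without that last library 6 of the 56 were called, 2 higher and 4 lower.

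In shU2AF2, 4 of the 56 genes rose, 2 fell and 50 did not pass, at background shares of 5.88% higher and 1.39% lower. Of the other 49, 3 rose and 0 fell, and their median difference was 0, against 0.0117 over all genes. The 3 were again LUC7L3, PNN and ARGLU1. LUC7L3 was at 0.13 and 0.11 in shU2AF2 (difference 0.0733, SE 0.0076, limma adjusted p = 0.000431), PNN at 0.23 and 0.21 (difference 0.06, SE 0.0101, limma adjusted p = 0.00646) and ARGLU1 at 0.11 and 0.1 (difference 0.0417, SE 0.0079, limma adjusted p = 0.0124). All were above every shControl library. The shSF3B4 and shU2AF2 comparisons share the control libraries, so these are not separate observations of the control level. PNN and ARGLU1 lost their calls without shU2AF2 replicate 1 (adjusted p = 0.0618 and 0.0991), which left 3 of the 56 called, and without shU2AF2 replicate 2 there were 4. All 3 lost their calls with libraries centred, at positive differences of 0.0183 to 0.05 (adjusted p between 0.206 and 0.677). With only shU2AF2 and shControl in the fit, LUC7L3 kept its call (adjusted p = 0.0421), and PNN and ARGLU1 did not (adjusted p = 0.0916 and 0.135).

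In shPABPN1, 5 of the 56 genes rose and 0 fell, at background shares of 3.99% higher and 0.725% lower, and 51 did not pass. Nothing is read from the count of 5, because calls of this kind chose the 7 genes. Of the other 49, 1 rose and 0 fell. Of these 49, 4 lay above all controls and 8 below, where 12.7% and 13.3% of all tested genes did. Their median difference was −0.02, against −0.0093 over all genes. The one call outside the 7 genes was PRPF4B, a kinase of the spliceosome, at 0.92 and 0.94 in shPABPN1, against 0.66, 0.75 and 0.7 in shControl (difference 0.227, SE 0.0351, limma adjusted p = 0.00663). It did not pass with only shPABPN1 and shControl in the fit (adjusted p = 0.119). The list counts depend on single libraries. Without either shPABPN1 library 3 of the 56 were called. Without shControl replicate 1, which had the lowest mean PDUI, 11 of the 56 were called, 5 higher and 6 lower.

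PRPF4B also rose in shPCBP2, where it was at 0.89 and 0.96 (difference 0.222, limma adjusted p = 0.0238), and in shZNF384, where it was at 0.87 and 0.89 (difference 0.177, limma adjusted p = 0.0478). In shSF3B4 it was at 0.59 and 0.61, below all 3 controls, without passing. In both shPCBP2 and shZNF384, 3 of 55 tested list genes rose, at background shares of 1.05% and 1.44%, and 0 fell, at 0.121% and 0.0638%. Without the 7 genes described first, 1 of 48 rose in shPCBP2 and 2 of 48 in shZNF384. Nothing is read from the counts of 3, because calls of this kind chose the 7 genes. The remaining call in shZNF384 was CDK11A, a kinase that pairs with L-type cyclins, at 0.32 and 0.34, against 0.2, 0.26 and 0.21 in shControl (limma adjusted p = 0.0396). CDK11A has a near-identical neighbour, CDK11B, and its last exon overlaps AL031282.2, so its values are uncertain. No list gene was called in either knockdown with libraries centred. PRPF4B in shPCBP2 lost its call without shControl replicate 1 or 3 or either shPCBP2 library (adjusted p between 0.0599 and 0.161), and the count of 3 came to 1 or 2 in those fits. In shZNF384, PRPF4B and CDK11A lost theirs without shControl replicate 1 or 3 or either shZNF384 library (adjusted p between 0.107 and 0.253), which left 0 or 1 list genes called. Fits of 2 groups ended the calls of PRPF4B in shPCBP2 (adjusted p = 0.26) and of PRPF4B and CDK11A in shZNF384 (adjusted p = 0.262 and 0.256), and a logit scale ended that of PRPF4B in shZNF384 (adjusted p = 0.141). In shHDAC1 limma called 0 of 54 list genes, with 7 at an unadjusted p under 0.05 and 0 called on a logit scale, and called 3 genes in the whole table.

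**Figure D4:**
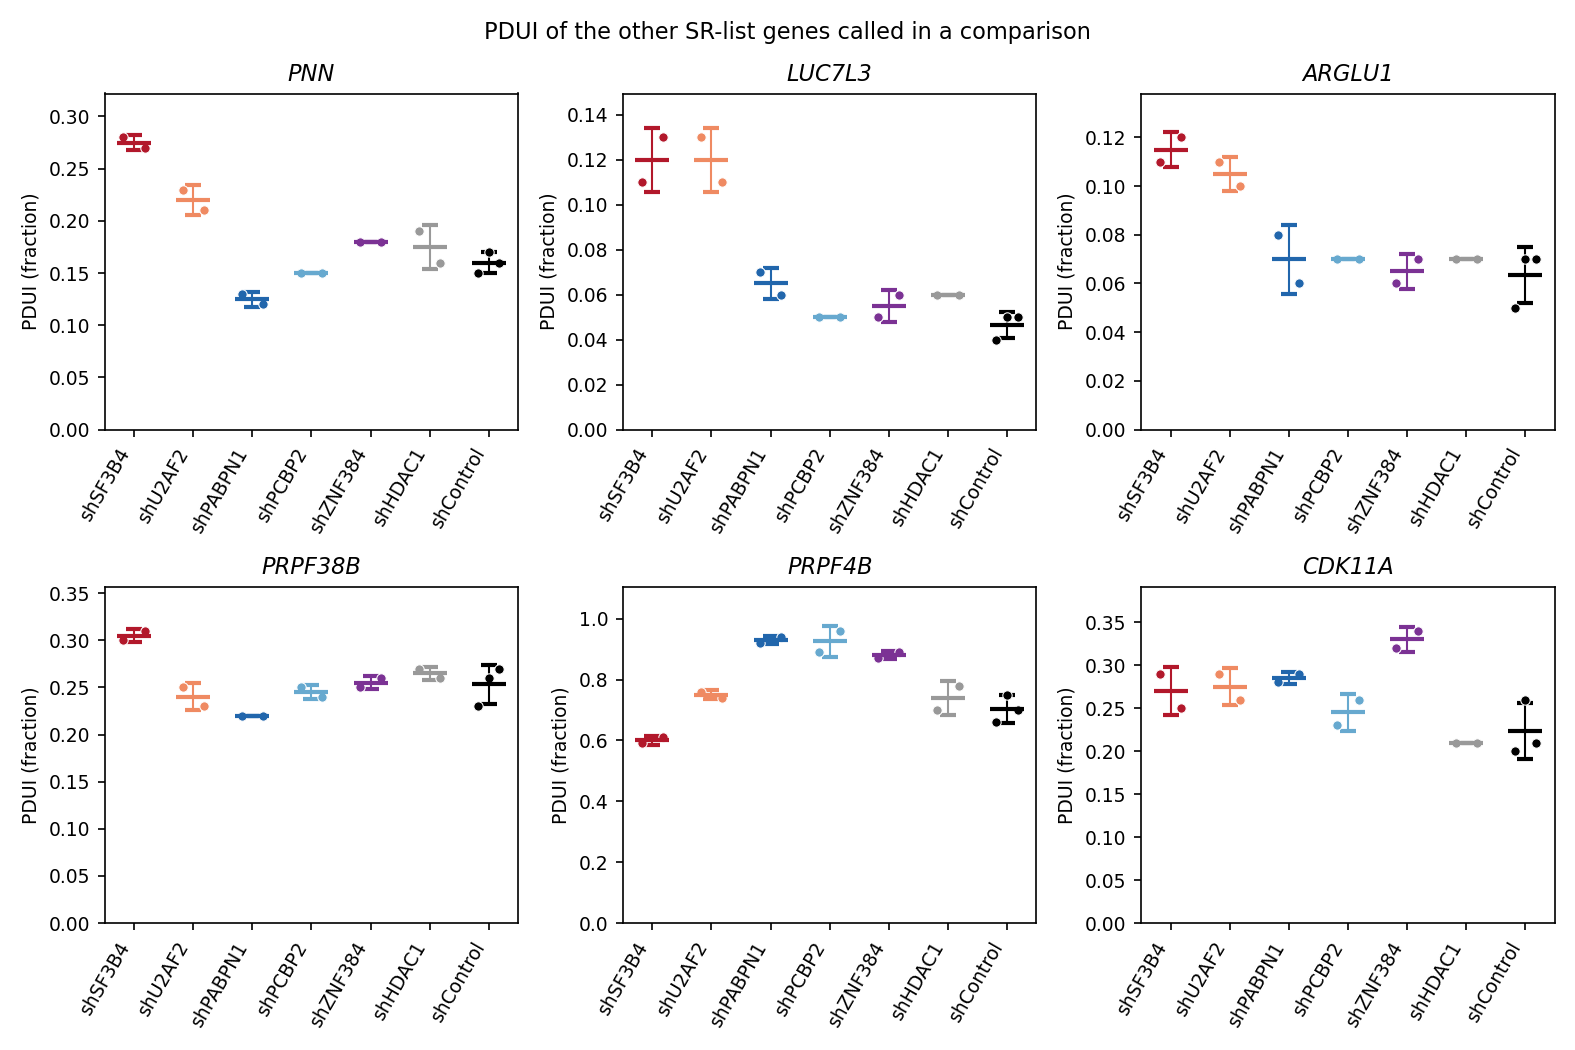
PDUI (fraction, axis from 0) in every library for the 6 genes of the SR lists, outside the 7 described first, that passed the test in at least 1 comparison; points are libraries, bars are group means and whiskers SD (n = 2 per knockdown, n = 3 for shControl). PNN, LUC7L3 and ARGLU1 are highest in shSF3B4 and shU2AF2, and PRPF4B is highest in shPABPN1, shPCBP2 and shZNF384.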

How the data were processed

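Per the labels' protocols, the RNA was nuclear (a total RNA kit is also named), was enriched for poly(A) with oligo(dT), and was turned into libraries with NEBNext Ultra reagents. The authors deposited 1 PDUI value per transcript and library as a fraction, from 0.001 to 1, for 13056 transcripts. The build is hg38, per the submitters' processing notes; aligner and site caller: not given in the sources used here. Libraries were grouped by title. The shSF3B4 columns were assigned to the group only, because titles and descriptions number them differently.

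Values entered limma 3.58.1 (R 4.3.3) as deposited: 15 libraries, 1 mean per group, eBayes with trend, two-sided, Benjamini-Hochberg within each comparison. A gene was tested with 2 knockdown values and at least 2 shControl values. The fit was also run on simulated data, with independent noise and with changes only in genes of middle PDUI. That run does not cover shifts shared by a whole library or genes of low PDUI. Nothing says that replicates were separate cultures, so p-values measure the spread between these samples, which may be technical.

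The members and lists were chosen with earlier results of these data known. Named genes are the 7 members, up to 4 other called list genes per comparison by size of difference, and 3 genes of most similar pattern per member, of which 1 is not reported here. Alternatives were median centring, a logit scale, fits of 2 groups, complete genes, a replicate block and leaving out each library. Differences between replicates 1 and 2 were hardly correlated between groups over genes (r between −0.036 and 0.047 over 21 pairs of groups). Such a check can miss a weak shared effect, and the shSF3B4 numbering is not settled. Whether the block has a pairing behind it is therefore not known.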

Additional observations from a re-analysis of the deposited data

How the results depend on the processing

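In all 16 called differences of the 7 genes the knockdown and control libraries did not overlap. Of the alternatives, only centring could therefore turn a direction, and nothing is read from the others. With libraries centred on their medians, SRSF3 in shSF3B4 turned to −0.0133, and the other called differences kept their direction. Centring subtracts 1 constant per library, which shifts every gene alike. It lowered the calls among all genes to 210 in shSF3B4 (from 661), 391 in shU2AF2 (899), 362 in shPABPN1 (579), 4 in shPCBP2 (145), 0 in shZNF384 (188) and 0 in shHDAC1 (3). Among the SR lists it left 4, 3, 2, 0 and 0 calls in the first 5 of these knockdowns, where there had been 10, 6, 5, 3 and 3. In shSF3B4 the split of all calls moved to 111 higher and 99 lower, and in shU2AF2 to 259 and 132, where it had been 520 and 141, and 727 and 172.

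With only the 2 groups compared in the fit, which leaves 3 residual degrees of freedom, calls among all genes fell to 186 in shSF3B4, 327 in shU2AF2, 0 in shPABPN1, 2 in shPCBP2 and 5 in shZNF384, and SR calls to 4, 2, 0, 0 and 0. The logit scale gave 13 calls in shHDAC1. With the replicate block there were 414 calls in shSF3B4, 288 in shPABPN1, 16 in shPCBP2, 8 in shZNF384 and 8 in shHDAC1. There were 0 SR calls in shZNF384, and whether the numbers pair the libraries is not known. Under the block PRPF38B in shSF3B4 (adjusted p = 0.0532), PRPF4B in shPCBP2 (0.0716) and PRPF4B and CDK11A in shZNF384 (0.103 and 0.138) were not called. The cause of these changes was not tested. Restricting the fit to complete genes kept every count within 1.5 times.

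Leaving out 1 library at a time gave, among all genes and among SR genes, 429 to 536 and 6 to 11 calls in shSF3B4, 573 to 788 and 3 to 8 in shU2AF2, 343 to 1048 and 3 to 11 in shPABPN1, 46 to 119 and 1 to 3 in shPCBP2, 22 to 140 and 0 to 3 in shZNF384, and 4 to 51 and 0 to 1 in shHDAC1. The 1048 calls in shPABPN1 came without shControl replicate 1, with 519 higher and 529 lower. Where 1 knockdown library is left, it is assumed to vary like the other groups. Depth is unknown, so no limit from it can be given.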

Other observations

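The genes whose PDUI ran closest to each of the 7 over the 15 libraries were taken from the 7737 complete genes whose group means span at least 0.1. They are the extremes of a search over these same libraries and carry no test. For SRSF1 they were KIN, NUDC and RBM28 (Pearson r = 0.948, 0.947 and 0.947). KIN, a DNA- and RNA-binding protein, averaged 0.875 in shU2AF2 and 0.425 in shPABPN1, against 0.183 in shControl. For SRSF3 they were ANKRD9, SAP30BP and IL17RA (r = 0.968, 0.953 and 0.95), of which SAP30BP averaged 0.41 in shSF3B4 and 0.345 in shU2AF2, against 0.2 in shControl. SRSF3 itself left 0.05 only in the shSF3B4 and shU2AF2 libraries, so its r values rest on those libraries. For SRSF10 the closest genes were MLXIP, PPP4R2 and AC026471.1 (r = 0.937, 0.923 and 0.89), with MLXIP, a partner of the transcription factor MLX, at 0.52 in shSF3B4 and 0.72 in shU2AF2, against 0.88 in shControl.

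For SRSF11 the closest genes were ARHGAP5, WDR26 and ZBTB10 (r = 0.941, 0.937 and 0.925), and WDR26, a subunit of the CTLH ubiquitin ligase, also came first for PPIG (r = 0.94), with TSC22D2 also among its closest (r = 0.904). WDR26 averaged 0.265 in shSF3B4, 0.32 in shU2AF2 and 0.61 in shPABPN1, against 0.453 in shControl. SREK1 ran closest to ZNF326, GIGYF2 and NFATC2IP (r = 0.94, 0.938 and 0.913). ZNF326, a zinc finger protein of a complex that couples splicing to transcript elongation, averaged 0.155 in shSF3B4 and 0.535 in shPABPN1, against 0.397 in shControl. BCLAF1 ran closest to DDHD1, CNOT6 and UBA6 (r = 0.95, 0.922 and 0.917), and the phospholipase gene DDHD1 averaged 0.2 in shSF3B4 and 1 in both shPABPN1 and shPCBP2, against 0.66 in shControl.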
